A study of Mus musculus with 4 samples.

Results

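Mural cells, the pericytes and vascular smooth muscle cells that wrap the endothelial tube of choroidal vessels, were described in single-cell RNA libraries of mouse retinal pigment epithelium (RPE) and choroid. The members were chosen by their own transcript counts: a cell barcode was taken when it held at least 3 of 8 mural transcripts (Rgs5, Notch3, Kcnj8, Des, Higd1b, Myh11, Cnn1 and Cspg4), fewer than 3 of 6 endothelial transcripts (Pecam1, Cdh5, Kdr, Flt1, Emcn and Plvap), fewer than 3 of 4 fibroblast transcripts (Dcn, Lum, Pdgfra and Dpt) and less than 0.5% of its unique molecular identifiers (UMIs, the counted RNA molecules) in 5 RPE genes. The rule found 137 members among 6555 barcodes with at least 300 genes and no more than 30% mitochondrial UMIs, which is 2.09% of them.

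The tissue came from wild-type mice and from Vldlr-/- mice, which lack the very low density lipoprotein receptor and are used as a model of subretinal neovascularization. Each genotype was sampled at 1 month and at 2 months of age, and each of the 4 groups is 1 droplet library. The eyes were cleared of extraocular muscle, the anterior segment and the neural retina were taken off, and the scraped RPE-choroid was dissociated with enzymes and depleted of dead cells. The sources used here do not give the number of animals pooled, their sex or their strain. The label Vldlr-/- names no Cre driver or cell type, so that loss of the receptor in mural cells cannot be told apart from loss elsewhere.

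Pericytes sit on capillaries within the vascular basement membrane. They depend on PDGF-B from the endothelium, which they receive through Pdgfrb, and on Notch3, which is activated by ligands such as Jag1 on neighbouring cells. Smooth muscle cells ring arteries and arterioles and carry a contractile programme of actin, myosin, calponin and their regulators, which the coactivator myocardin (Myocd) switches on together with serum response factor at CArG boxes in promoters. In both, nitric oxide relaxes the cell through soluble guanylate cyclase (Gucy1a1 with Gucy1b1) and the kinase Prkg1. The choroid has a dense capillary layer on the side of the RPE and larger arteries and veins beyond it.

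The CArG box was looked for in promoters because contractile genes differed widely among the mural cells, as the values further on show. The 250 bases before each annotated start in the RefSeq promoter table (GRCm38.p6) were searched on both strands for an exact CArG box. Of 31 contractile genes looked up, 26 had an entry, and 5 of these (19.2%) held a box, beside 439 of all 27025 genes with an entry (1.62%) and 482 of 32851 windows (1.47%). A match is a description of these letters only. Tagln, Myh11, Actg2, Myocd and Map3k7cl had no entry. The 5 stretches are given 5′ to 3′ on the strand of the gene, with the box in capitals.
Myl9, regulatory light chain of smooth muscle myosin, chr2:156775288-156775327, plus strand: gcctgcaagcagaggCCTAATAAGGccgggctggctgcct
Vcl, vinculin, which anchors actin to adhesion sites, chr14:20929156-20929195, plus strand: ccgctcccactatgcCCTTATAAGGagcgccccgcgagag
Filip1l, chr16:57549165-57549204, plus strand: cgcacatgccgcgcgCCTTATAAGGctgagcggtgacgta
Myl6, essential light chain of myosin, chr10:128493035-128493074, minus strand: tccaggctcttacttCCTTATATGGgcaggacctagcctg
Rergl, a Ras-like protein, chr6:139501934-139501973, minus strand: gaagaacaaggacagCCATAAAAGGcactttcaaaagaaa
Of these 5 genes, Myl9, Vcl, Filip1l and Myl6 were measured in the mural cells at 2 months.

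Levels are given as UMIs or as CPM, the UMIs of a gene per 1000000 UMIs of the summed cells. In the order wild type at 1 month, Vldlr-/- at 1 month, wild type at 2 months and Vldlr-/- at 2 months, used from here on wherever 4 values are given, the libraries held 23, 23, 47 and 44 mural cells. As a share of kept barcodes these were 1.48% (exact Clopper-Pearson 95% interval 0.944% to 2.22%), 1.26% (0.803% to 1.89%), 2.30% (1.69% to 3.04%) and 3.86% (2.82% to 5.15%). At each age the intervals of the genotypes overlapped, and these and all other intervals below cover counting error only. The share of a cell type in a dissociated suspension also depends on the other cells that were recovered. The members held 129859, 167881, 536371 and 491565 UMIs in all, with medians of 4779, 5880, 7683 and 8346 UMIs per cell, so that the 1-month mural cells give the less precise values. The whole libraries held 11194301 to 23070271 UMIs. One group is 1 library, so no comparison between groups has a replicate check and none was tested. The 1-month and 2-month matrices also name different versions of the counting program in their headers (Cell Ranger 6.0.2 and 7.0.1), so that age and processing cannot be told apart.

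Vldlr itself gave 1, 2, 14 and 10 UMIs in the mural cells, or 7.70, 11.9, 26.1 and 20.3 CPM. At this depth the targeted gene does not check the genotype labels in mural cells, and transcripts counted from outside a deleted part would be counted in a knockout.

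The 8 rule transcripts chose the cells and are given as a description. Rgs5, a regulator of G-protein signalling used as a general pericyte marker, gave 674, 952, 2135 and 2201 UMIs, the most of the 8 at 1 month. Notch3 gave 134, 102, 403 and 509 UMIs and Cspg4, the NG2 proteoglycan, 35, 38, 215 and 142. Kcnj8, a pore subunit of ATP-sensitive potassium channels in pericytes, gave 43, 70, 50 and 59 UMIs, which is 331, 417, 93.2 and 120.0 CPM. In CPM it was thus lower in both 2-month libraries than in both 1-month libraries. The opposite order held for Myh11, Cnn1, Des and Higd1b. Myh11, smooth muscle myosin heavy chain, gave 16, 17, 2522 and 2638 UMIs, and Cnn1, calponin, 0, 0, 187 and 161. Myh11 thus had more UMIs than Rgs5 at 2 months. Des, desmin, gave 27, 27, 180 and 202 UMIs and Higd1b 7, 4, 57 and 67.

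**Figure D1:**
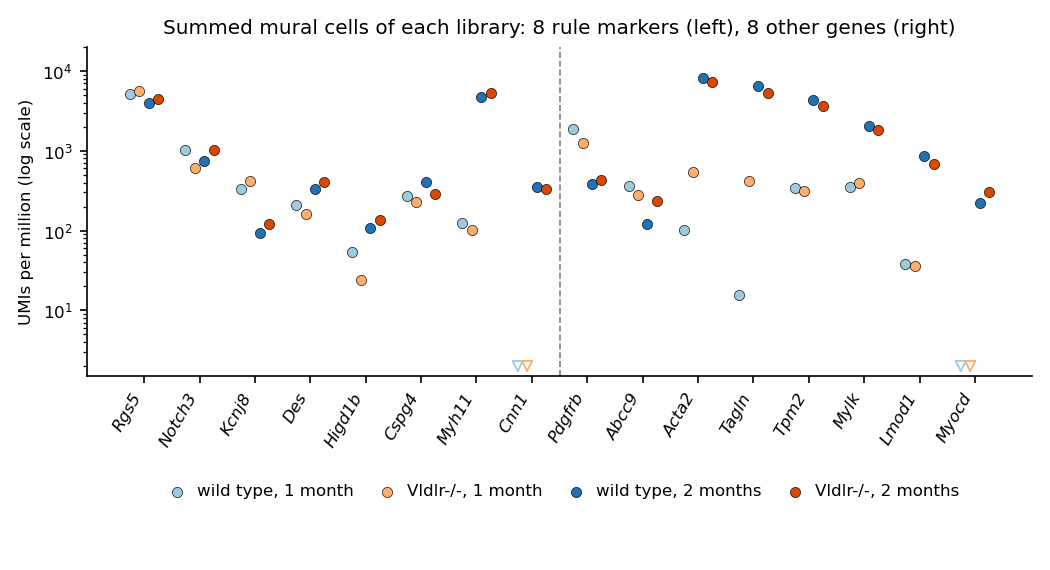
CPM (log axis) in the summed mural cells of each library, for the 8 transcripts of the rule on the left of the dashed line and 8 other genes on the right; each point is 1 library and an open triangle at the axis foot marks a gene with 0 UMIs. Myh11, Cnn1, Acta2, Tagln, Tpm2, Mylk, Lmod1 and Myocd are higher in both 2-month libraries than in both 1-month libraries, while Kcnj8 and Pdgfrb are lower.

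The threshold of the rule can be read from the barcodes on either side of it. The 77 barcodes with exactly 2 mural transcripts, which the rule left out, held 1145 CPM of Rgs5 and 355 of Pdgfrb, but 55.0 of Acta2. Those with exactly 3, the first inside, numbered 30 and held 1077 of Rgs5, 472 of Pdgfrb and 1862 of Acta2. Among all barcodes of the 4 matrices 1 occurred in more than 1 library, and no barcode was shared between members. Xist, expressed from the inactive X of females, gave 82, 116, 75 and 146 UMIs in mural cells and the Y-linked Ddx3y 4, 5, 46 and 28, so that transcripts of both sexes were in every library.

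Markers of other cell types were present in part of the members. Fibroblast markers made up 0.714%, 1.44%, 0.161% and 0.249% of mural UMIs. Of the members 6, 9, 6 and 11 held 2 of the 4 fibroblast transcripts of the rule. Dcn, the collagen-binding proteoglycan decorin, gave 96, 1059, 218 and 481 UMIs, of which 77, 1047, 206 and 471 lay in those members. The 13 mitochondrially encoded genes gave 4980, 6521, 36062 and 26725 UMIs in all members. Without those members they gave 3422, 2532, 32622 and 22097. By this list much of the summed 1-month Vldlr-/- RNA lay in those members, so that summed 1-month Vldlr-/- values depend on them. Endothelial markers made up 0.183%, 0.101%, 0.0612% and 0.0631%, RPE markers no more than 0.0347%, and skeletal muscle markers 0, 1, 5 and 2 UMIs. In the 2-month wild-type library 2 members held at least 1% melanocyte markers, and in the 2-month Vldlr-/- library 2 held at least 1% macrophage markers. Main results below are therefore also given for the 17, 14, 41 and 33 members with no more than 1 fibroblast transcript, a choice made after the values were seen.

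Outside the rule, the genes that set mural cells most widely apart from the 128 endothelial and 664 fibroblast barcodes of the same libraries included regulators of G-protein signalling, integrins and calcium channels. The contrast follows from the choice of cells and was not tested. Endothelial barcodes numbered 6, 22, 42 and 58, and fibroblast barcodes 179, 317, 71 and 97. Of 6682 genes measured, 83 (1.24%) were at least 2-fold higher in mural cells than in both classes in all 4 libraries. Rgs4, a regulator of G-protein signalling related to Rgs5, gave 24, 27, 42 and 55 UMIs in mural cells and 0 in the endothelial and fibroblast barcodes of every library. It lies on the same chromosome as Rgs5, chromosome 1 (GRCm38, GENCODE M21, 169741477 to 169747642, minus strand, with Rgs5 at 169655501 to 169695813 on the plus strand). Itga7, a laminin-binding integrin subunit, gave 26, 15, 41 and 52 UMIs, and Il34, a ligand of the macrophage receptor Csf1r, 29, 17, 105 and 60. Carmn, a long noncoding RNA of smooth muscle, gave 46, 38, 255 and 159 UMIs.

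By list, the same 2-fold difference in all 4 libraries held for 15 of 28 measured mural genes outside the rule, among them Cox4i2 and Ndufa4l2, respiratory chain subunit isoforms, the guanylate cyclase subunits Gucy1a1 and Gucy1b1, Steap4 and the integrin subunits Itga1 and Itga7. In the Notch pathway 4 of 12 genes did so. These were the receptor Notch3, which is itself a transcript of the rule, the ligand Jag1 and the target genes Hey2 and Heyl. Heyl gave 67, 60, 147 and 107 UMIs in mural cells, which is 516, 357, 274 and 218 CPM, while in endothelial barcodes it did not pass 8.06 CPM in any library. Of 19 ion channel genes 5 did so, among them the potassium channel genes Kcnk3 and Kcne4 and the L-type calcium channel subunit Cacna1c. Among 18 vasoactive receptor genes only Ednra, the endothelin A receptor, did, with 54, 70, 182 and 236 UMIs.

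The mural cells differed widely along the range from pericyte to smooth muscle. Each cell was placed by 12 contractile transcripts that the rule did not use, among them Acta2, Tagln, Tpm2, Lmod1 and Mylk, against 12 pericyte transcripts such as Pdgfrb, Abcc9, Vtn, Steap4 and Cygb. Contractile UMIs made up 15.7% (13.2% to 18.4%), 32.5% (29.6% to 35.4%), 93.1% (92.6% to 93.5%) and 91.4% (90.9% to 92.0%) of these transcripts. Both 1-month libraries were thus low and both 2-month libraries high. In the median cell the share was 12.7%, 12%, 93.9% and 75.8%. The 12 pericyte transcripts were not limited to mural cells. Their summed level was 5213, 4104, 1743 and 1906 CPM in mural cells and 1740, 1653, 1229 and 1032 in fibroblast barcodes. The 12 contractile transcripts held 970, 1972, 23454 and 20347 in mural cells and 542, 370, 924 and 431 in fibroblast barcodes. The part of fibroblast RNA in the placing of cells was not tested.

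Cells with over 50% contractile UMIs are called contractile-side and the others pericyte-side, which cuts a range and does not define types. At 1 month 0 of 22 placed wild-type cells were contractile-side (exact interval 0% to 15.4%). At 1 month in Vldlr-/- 3 of 23 were (13.0%, 2.78% to 33.6%). At 2 months 29 of 47 wild-type cells were contractile-side (61.7%, 46.4% to 75.5%) and 24 of 44 Vldlr-/- cells (54.5%, 38.8% to 69.6%). The intervals of the genotypes overlapped at each age, and those of the 1-month and 2-month libraries did not. With every cell thinned to 1500 UMIs the shares were 0%, 10%, 73.2% and 72.7%, over 19, 20, 41 and 33 cells that could still be placed. With members that hold 2 fibroblast transcripts left out they were 0 of 17, 2 of 14 (14.3%), 27 of 41 (65.9%) and 24 of 33 (72.7%), so that at 2 months the order of the genotypes was the other one. At 2 months few cells lay between the extremes: 3 in each library had between 40% and 60% contractile UMIs, while 26 and 21 cells lay above 90%.

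**Figure D2:**
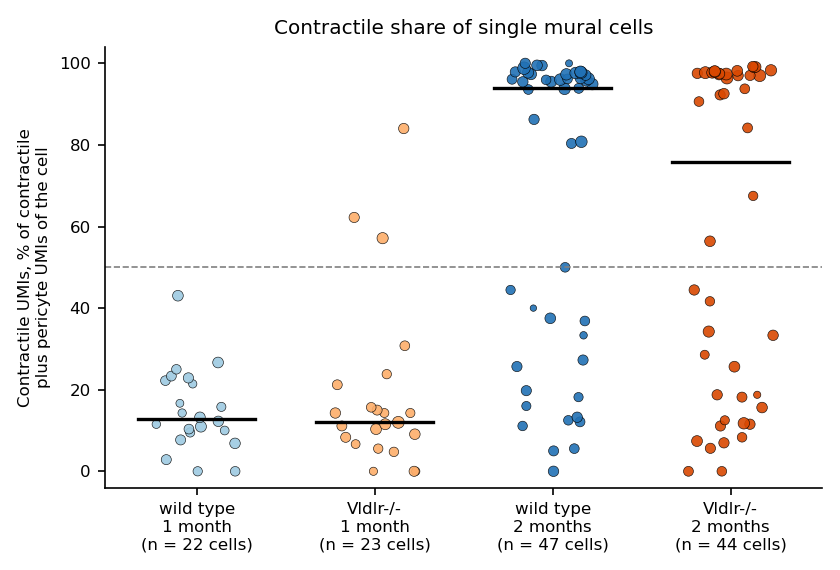
Contractile UMIs as a percentage of contractile plus pericyte UMIs in each placed mural cell, by library; the size of a point grows with the cell's UMIs, bars are medians and the dashed line is the 50% cut. Cells of both 1-month libraries lie mostly below 30%, while the 2-month libraries hold a group of cells above 90% and a second group below 50%.

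The ages also differed in these transcripts before any mural cells were chosen. Over all kept barcodes of any type, Acta2, smooth muscle actin, gave 217, 172, 6801 and 5599 UMIs, or 20.9, 15.997, 312 and 374 CPM. Myh11 gave 20, 17, 3150 and 3131 UMIs, or 1.93, 1.58, 145 and 209 CPM. Among barcodes with at least 3 mural transcripts that the limits on other cell types left out, 4 of 55, 0 of 34, 10 of 63 and 10 of 66 placed barcodes were contractile-side. Fewer smooth muscle cells and less of these RNAs per cell cannot be told apart over whole libraries.

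Within the mural cells Acta2 gave 13, 92, 4324 and 3570 UMIs. At 1 month 92.3% and 92.4% of its UMIs came from 1 cell in each library, so that the higher Vldlr-/- value at that age rests on 1 cell. Tagln, the actin-binding protein transgelin, gave 2, 71, 3466 and 2635 UMIs. Tpm2, a tropomyosin, gave 44, 53, 2344 and 1784 UMIs and Mylk, the kinase of myosin light chain, 46, 66, 1095 and 902. All 4 transcripts were low in both 1-month libraries and high in both 2-month libraries. Pln, phospholamban, and Myocd gave 0 UMIs in both 1-month libraries, against 87 and 105 and against 120 and 151 at 2 months. Prkg1, which transmits the nitric oxide signal, gave 23, 27, 1437 and 1245 UMIs. It was also higher at 2 months in fibroblasts, with 148, 122, 2139.66 and 1864 CPM, and in endothelial barcodes, with 0, 9.08, 548 and 324, so that its age difference was not limited to mural cells. Pericyte genes had the other order. Pdgfrb, the receptor of PDGF-B, gave 1856, 1263, 386 and 425 CPM, and Abcc9, the partner subunit of Kcnj8, 362, 280.0, 121 and 232.

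At 2 months both sides held enough cells to be set side by side. Contractile-side cells had medians of 12241 UMIs in the wild type and 10425 in Vldlr-/-, and pericyte-side cells 5002.5 and 7615.5. The median mitochondrial share was 7.22% and 5.96% on the contractile side and 3.38% and 3.55% on the pericyte side, and the part of depth in what follows was not tested. The cells were placed by their own transcripts, so these are descriptions. Of 5545 genes measured, 338 (6.1%) were at least 2-fold higher on the contractile side in both libraries and 464 (8.37%) at least 2-fold lower.

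Contractile genes that had no part in placing the cells were higher on the contractile side. All 16 measured had ratios above 0 in both libraries, as did 1465 of all 5545 genes (26.4%), and 12 were at least 2-fold higher in both, with a median log2 ratio of 2.27 in the wild type and 2.80 in Vldlr-/-. The median over all genes was -0.16 and -0.12. Myocd gave 120 and 151 UMIs on the contractile side and 0 on the pericyte side of both libraries. Csrp1, a LIM protein of smooth muscle, reached 1574 and 1577 CPM on the contractile side and 82.1 and 184 on the pericyte side. Myl9, whose promoter stretch is printed above, had log2 ratios of 2.67 and 3.68. Of the other genes with a CArG box, Filip1l had 2.19 and 2.55, Myl6 2.21 and 2.99, and Vcl 0.46 and 0.90.

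Channel and signalling genes differed between the sides as well. Kcnma1, the pore of the large-conductance calcium-activated potassium channel, gave 245 and 187 UMIs, all on the contractile side. Of these, 109 and 3 lay in 4 and 1 contractile-side cells that lack Rgs5 and Notch3, which are described below. The other contractile-side cells held 402 and 563 CPM of Kcnma1, against 0 on the pericyte side. Tesc, a calcium-binding protein, with 138 and 133 UMIs, Ryr2, the ryanodine receptor of the sarcoplasmic reticulum, with 64 and 62, and Ramp1, a part of the receptor of calcitonin gene-related peptide, with 100 and 61, gave 0 UMIs on the pericyte side of both libraries. Kcnj8 had 18.2 and 15.0 CPM on the contractile side against 431 and 343 on the pericyte side. Abcc9 had 25.1 and 23.9 against 554 and 674, but it was 1 of the 12 transcripts that placed the cells on the pericyte side. Prkg1 differed by less than 2-fold, with 2547 and 2495 CPM against 3273 and 2612.

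The pericyte side was higher in matrix, interferon and inflammatory genes. Of 31 fibrillar matrix genes 26 had ratios below 0 in both libraries, beside 2185 of all 5545 genes (39.4%). The median log2 ratio was -1.83 and -1.32. Without members that hold 2 fibroblast transcripts these medians were -1.10 and -1.36. Members with 2 fibroblast transcripts numbered 4 and 11 on the pericyte side and 2 and 0 on the contractile side. The pericyte transcripts that placed the cells were also present in fibroblasts, as given above. Among 13 interferon and antigen presentation genes 12 were below 0 in both libraries (median -1.63 and -1.56), with Ifitm3, an antiviral membrane protein, at 1703 and 1023 CPM on the pericyte side against 267 and 269. Without members that hold 2 fibroblast transcripts these medians were -1.56 and -1.50. The summed level of the list was 2269 and 2221 CPM in all mural cells and 5140 and 4393 in fibroblasts, and the part of fibroblast RNA in the difference was not tested. Spp1, the secreted glycoprotein osteopontin, led the genes of the pericyte side, with 314 and 383 UMIs on the pericyte side and 1 and 0 on the contractile side. It stayed at 4345 and 4632 CPM on the pericyte side, against 0 on the contractile side, when members with 2 fibroblast transcripts were left out. Lbp and Pi16, which also had all their UMIs on the pericyte side, were at 0 there without those members. Mgp, matrix Gla protein, an inhibitor of calcification, was abundant on both sides, with 1823 and 1989.8 CPM on the contractile and 9932 and 4302 on the pericyte side.

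Most respiratory chain genes were higher on the contractile side. Of 75 nuclear-encoded genes 62 had ratios above 0 in both libraries, with medians of 0.57 and 0.66. Among all 5545 genes 1465 (26.4%) had ratios above 0 in both libraries. The 13 mitochondrially encoded genes had medians of 1.08 and 0.50, and 12 were above 0 in both libraries. Of these 13, 9 were at least 2-fold higher on that side in the wild-type library and 0 in the Vldlr-/- library. Over all 5545 genes these counts were 756 and 721. When members that hold 2 fibroblast transcripts were left out, they were 12 and 5 of the 13, with medians of 1.26 and 0.98.

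**Figure D3:**
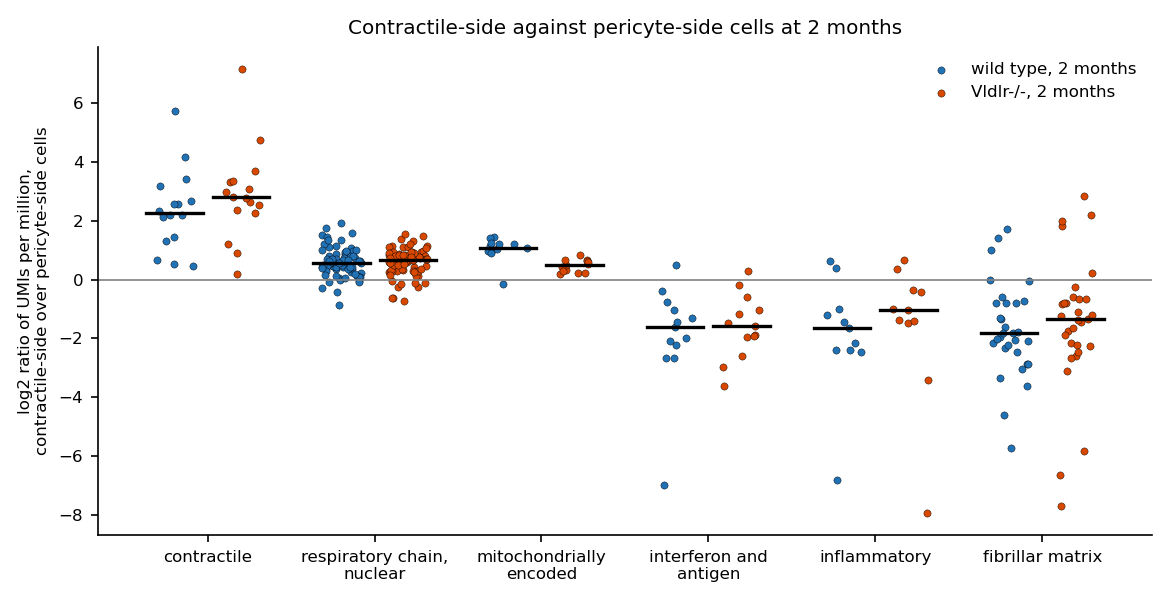
Log2 ratio of CPM in contractile-side over pericyte-side mural cells at 2 months, 1 point per measured gene of each list in each library, with bars at the medians; genes used to place the cells are left out. Contractile genes lie above 0, most respiratory chain genes above 0, and most interferon, inflammatory and fibrillar matrix genes below 0 in both libraries.

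A few contractile-side cells lacked both Rgs5 and Notch3. There were 4 in the 2-month wild-type library, with 10227 to 55611 UMIs each and 100426 together, and 1 in the 2-month Vldlr-/- library, with 7403. The other contractile-side cells held 4393 and 3739 CPM of Rgs5, while these cells held 0. Contractile transcripts were abundant in them. Acta2 was at 9629 and 9321 CPM in them and at 9882 and 10621 in the other contractile-side cells, and Myh11 at 4292 and 3107 against 6092 and 7861. Ebf1, a transcription factor of pericytes and other mesenchymal cells, was at 10.0 and 0 against 907 and 1365, and Heyl at 0 and 0 against 331 and 196. Chrm3, the muscarinic receptor through which acetylcholine contracts several smooth muscles, gave 58 and 4 UMIs in these cells, found in all 5, and 0 in the other 25 and 23 contractile-side cells. It gave 202 and 156 CPM in the endothelial barcodes of the same libraries. Chrm3 and the choice of these cells were taken up after the values were seen. What vessel or tissue the 5 cells came from was not tested.

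Vldlr-/- and wild-type mural cells were then compared at each age, as log2 ratios of CPM with 0.5 UMIs added per library, over genes with at least 30 UMIs. At 1 month 153 of 1855 genes (8.25%) were at least 2-fold higher in Vldlr-/- and 107 (5.77%) at least 2-fold lower. At 2 months 185 of 5545 (3.34%) were higher and 164 (2.96%) lower. At both ages 7 of 1803 genes (0.388%) were higher and 4 (0.222%) lower. When members that hold 2 fibroblast transcripts were left out, 1 of 825 genes was higher at both ages and 4 were lower. None of the 7 could be counted, because each had fewer than 30 UMIs at 1 or both ages in that set. Nav1, Hist1h4d and Kctd12 still had ratios above 0 at both ages there, while Chil1, Lbp, Dcn and Apod did not. Of the earlier 4, Myoc and Ttr were under the same limit, and only Cd24a was again lower at both ages. Without members that hold 2 fibroblast transcripts the counts at 1 month were 40 and 48 of 840 genes, of which 10 and 22 were among the earlier ones. At 2 months they were 135 and 138 of 4553, of which 70 and 78 were.

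Of the 7 genes higher at both ages, 3 also had mural levels of at least 0.25 of those in every other cell class with at least 30 cells, which was asked of named genes because free RNA of other cells can enter droplets. The other 4 were Chil1, Dcn, Kctd12 and Apod. Nav1 (GRCm38 chromosome 1, 135434580 to 135607295, minus strand), a microtubule-binding neuron navigator, gave 17, 72, 14 and 51 UMIs, with log2 ratios of 1.68 (95% counting interval 0.93 to 2.57) at 1 month and 1.95 (1.12 to 2.96) at 2 months. Both Vldlr-/- values lay above the wild-type value of their age, and 45.8% of the 1-month Vldlr-/- UMIs came from 1 cell. Without members that hold 2 fibroblast transcripts the ratios were 0.94 and 1.5. Hist1h4d, a replication-type histone H4 gene in a cluster of near-identical copies on chromosome 13, gave 8, 25, 42 and 80 UMIs (1.21 and 1.05), and its counts may be shared with those copies. Lbp, the lipopolysaccharide-binding protein, gave 5, 74, 11 and 31 UMIs, with 63.5% of the 1-month Vldlr-/- UMIs in 1 cell. Lbp gave 2, 0, 0 and 0 UMIs without members that hold 2 fibroblast transcripts, so that its difference rests on those members.

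The 4 genes lower at both ages were Col4a4, Myoc, Cd24a and Ttr, an RPE transcript. Col4a4 and Myoc met the limit set against free RNA of other cell classes, while Cd24a and Ttr did not. Col4a4, a basement membrane collagen chain (chromosome 1, 82448423 to 82586849, minus strand), gave 35, 20, 37 and 10 UMIs, with log2 ratios of -1.16 (-2.05 to -0.35) and -1.71 (-2.93 to -0.73). Without members that hold 2 fibroblast transcripts they were 0.00 and -2.11, so that the 1-month value rests on those members. Myoc, myocilin, gave 73, 23, 66 and 9 UMIs, in 1, 2, 2 and 2 cells, and 0, 0, 0 and 1 without members that hold 2 fibroblast transcripts. Cd24a, a surface glycoprotein, gave 57, 16, 28 and 12 UMIs (-2.17 and -1.06), and the ratios were -1.23 and -1.09 without members that hold 2 fibroblast transcripts. Pttg1, securin, stood outside these 4 because its 1-month counts were under the limit of 30 UMIs. It gave 20, 3, 58 and 4 UMIs, with a log2 ratio of -3.57 (-5.66 to -2.30) at 2 months. It was lower in Vldlr-/- in fibroblasts as well, at 84.97 against 6.42 CPM at 1 month and 69.1 against 2.76 at 2 months. The lower value was thus also present outside mural cells.

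Genes that were far apart at 1 age were often carried by 1 or 2 cells. Kcnip4 gave 173 UMIs in the 2-month wild type and 0 in the other libraries, 98.3% of them from 1 cell, and Pmel, a melanosome protein, 457 and 4 UMIs at 2 months, 99.3% of the wild-type ones from 1 cell. Chil1 gave 1, 515, 11 and 33 UMIs, in 1, 3, 4 and 4 cells. Aldh1a2, the enzyme that makes retinoic acid, gave 45, 36, 11 and 58 UMIs, with a log2 ratio of 2.47 at 2 months. Alpl, tissue-nonspecific alkaline phosphatase, gave 19, 36, 7 and 40 UMIs. Fibroblasts held more of both at 2 months, with 182 and 205 CPM of Aldh1a2 against 20.5 and 118 in mural cells, and 202 and 215 of Alpl against 13.1 and 81.4. With at most 1 endothelial and 1 fibroblast transcript the 2-month ratios were 0.075 for Aldh1a2 and 0.56 for Alpl. Angpt1, angiopoietin 1, the Tie2 ligand by which mural cells stabilize endothelium, gave 37, 43, 25 and 99 UMIs, with log2 ratios of -0.16 (-0.82 to 0.52) and 2.09 (1.47 to 2.81). At 2 months it was higher in Vldlr-/- on both sides, by 2.01 in contractile-side and 1.54 in pericyte-side cells. Fibroblasts held more of it than mural cells, at 647 and 969 CPM at 2 months against 46.6 and 201, and whether free fibroblast RNA adds to the mural value was not tested. Endothelial barcodes held 0 and 3.43.

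Immediate early genes, which are induced within minutes by growth factors, stress and dissociation, were lower in Vldlr-/- at 1 month. The ratio was below 0 for 20 of 21 measured genes and at least 2-fold lower for 12, with a median of -1.22 beside 0.05 over all genes, of which 46.6% were below 0 and 53.4% above. Fos gave 383, 167, 93 and 175 UMIs, with log2 ratios of -1.57 (-1.84 to -1.30) at 1 month and 1.03 (0.67 to 1.42) at 2 months. Btg2 gave 236, 86, 102 and 97 UMIs (-1.82 and 0.05) and Jun 217, 112, 151 and 173 (-1.32 and 0.32). Junb gave 331, 253, 155 and 218 UMIs (-0.76 and 0.62). Egr1 gave 309, 218, 90 and 89 UMIs (-0.87 and 0.11). Without members that hold 2 fibroblast transcripts 13 of 16 genes were below 0 and 8 at least 2-fold lower (median -0.93). The list was lower at 1 month in the neighbouring cells as well. Its summed level was 20176 CPM in wild-type and 9691 in Vldlr-/- mural cells, 31329.5 and 18425.7 in endothelial barcodes, and 26466 and 16624 in fibroblasts. The endothelial values rest on 6 and 22 barcodes. Btg2 was at 1475 and 653 CPM in fibroblasts. At 2 months the median over 24 genes was 0.06, with 13 above 0. In CPM both 1-month libraries held more of these transcripts than both 2-month libraries for Fos, Btg2, Jun, Junb and Egr1, Fos with 2949 and 995 against 173 and 356.

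At 1 month the lists of mural genes leaned to the wild type, and the lean was not kept without the members that hold 2 fibroblast transcripts. For mural genes outside the rule the median was -0.53, with 19 of 21 below 0. Without those members it was 0.46, with 16 of 20 above 0. The Notch list had -0.53 and 0.12, and the ion channel list -0.66 and 0.18. Ebf1, the member of the first list with the most UMIs over the 4 libraries, gave 198 and 127 UMIs at 1 month, a log2 ratio of -1.01 in all members and of -0.52 without those members. The part of the cells with fibroblast transcripts in the 1-month values of other genes was not tested.

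At 2 months the mural genes outside the rule had a median of 0.25 in all members (16 of 27 above 0) and 0.13 without members that hold 2 fibroblast transcripts (14 of 25). Basement membrane genes had a median of 0.27 in all members, with 13 of 15 above 0, and 0.34 without members that hold 2 fibroblast transcripts, again with 13 of 15 above 0. Contractile genes outside the rule had 0.06 (14 of 27 above 0) and 0.37 (24 of 26). Notch genes had 0.33 (9 of 11) and 0.41 (9 of 11). Nuclear respiratory chain genes had -0.14, with 60 of 75 below 0, and -0.14, with 57 of 75 below 0, and glycolysis genes -0.29 (11 of 14 below 0) and -0.27 (10 of 14). Over all genes measured 51% of ratios were above 0 and 49% below.

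**Figure D4:**
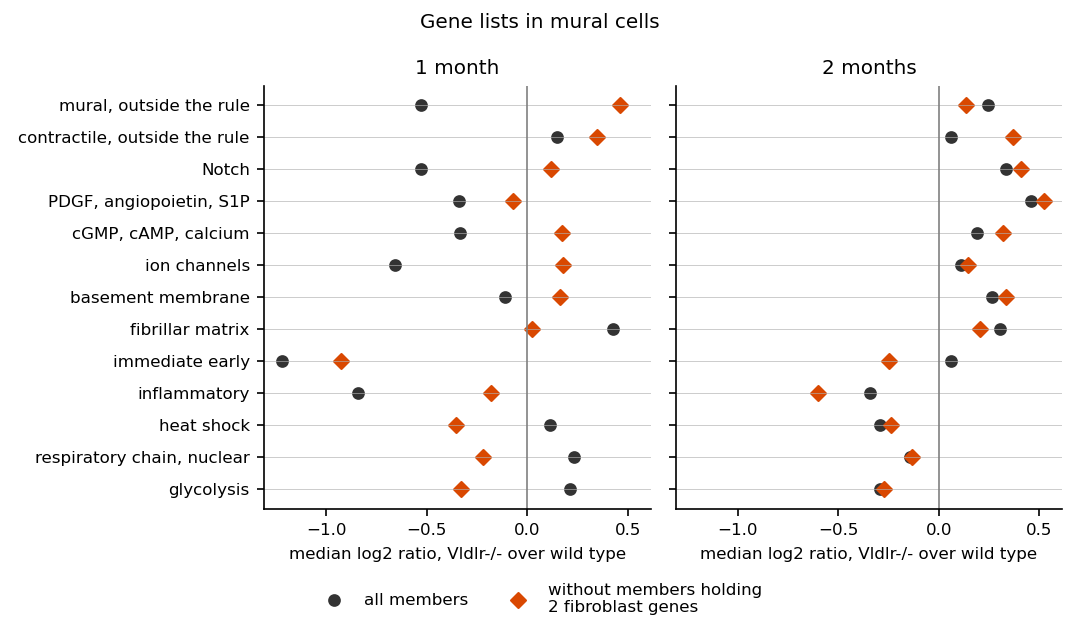
Median log2 ratio of Vldlr-/- over wild-type mural cells for 13 gene lists at 1 month (left) and 2 months (right); circles are all members and diamonds the members with no more than 1 fibroblast transcript. At 1 month several lists lie on opposite sides of 0 in the 2 sets, while immediate early genes are low in both; at 2 months most lists keep their side, and the immediate early list does not.

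The contractile-side cells at 2 months, 29 in the wild type and 24 in Vldlr-/-, held 2 and 0 members with 2 fibroblast transcripts. Of 4234 genes measured in them 129 (3.05%) were at least 2-fold higher in Vldlr-/- and 205 (4.84%) at least 2-fold lower. Without the 5 cells that lack Rgs5 and Notch3 these counts were 148 (4.05%) and 112 (3.07%) of 3650, of which 82 and 85 were among the earlier ones. The values below are given for all contractile-side cells first and without those 5 cells second. One other wild-type contractile-side cell held at least 1% melanocyte markers and 5.45% of the UMIs of that group. The wild type and Vldlr-/- thus held 455 and 2 UMIs of Pmel, 373 and 9 of Dct and 91 and 2 of Mlana. Without that cell they held 1 and 2, 6 and 9 and 3 and 2, a choice made after the values were seen, and 117 genes were at least 2-fold higher and 167 lower.

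Core contractile transcripts differed by less than 2-fold between genotypes. Acta2 held 9824 and 10592 CPM in wild type and Vldlr-/-, with log2 ratios of 0.11 (0.04 to 0.17) and 0.10 (0.04 to 0.17). Tagln had -0.01 (-0.08 to 0.07) and 0.16 (0.08 to 0.25), and Myh11 0.45 (0.37 to 0.53) and 0.37 (0.28 to 0.45). Over the contractile list the median was 0.32, with 21 of 26 above 0 and 1 at least 2-fold higher, and 0.33, with 22 of 26 above 0. That 1 gene was Sorbs2, an adaptor of actin and focal adhesions, with 315 and 650 UMIs and ratios of 1.44 and 1.27. Myocd had 120 and 151 UMIs and ratios of 0.72 and 0.72. Over all genes 2149 of 4234 and 1999 of 3650 ratios were above 0. With the wild-type cell rich in melanocyte markers left out, the contractile list had a median of 0.25, with 19 of 26 above 0. Acta2, Tagln and Myh11 then had 0.03 (-0.03 to 0.10), -0.09 (-0.16 to -0.01) and 0.37 (0.29 to 0.45).

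Of the nitric oxide and Notch genes described here, Gucy1a1 and Jag1 were at least 2-fold higher in Vldlr-/- over all contractile-side cells, and less than 2-fold without the 5 cells. Gucy1a1 held 107 and 182 UMIs, or 244 and 545 CPM, with log2 ratios of 1.16 (0.81 to 1.52) and 0.96 (0.60 to 1.34), while its partner Gucy1b1 had 73 and 73 UMIs and ratios of 0.39 and 0.13. Prkg1, further along the same path, had -0.03 and -0.02. Jag1 held 47 and 80 UMIs with ratios of 1.15 and 0.81, and Notch3 306 and 382 with 0.71 and 0.37. The 5 cells were chosen for holding no Notch3, so the lower second ratio of Notch3 follows from that choice. Heyl, a Notch target, went the other way, with 112 and 64 UMIs and ratios of -0.41 and -0.75. Ebf1 held 308 and 446 UMIs with 0.93 and 0.59, and Aspn, the proteoglycan asporin, 154 and 234 with 1.00 and 0.97.

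Basement membrane genes had medians of 0.43 (12 of 14 above 0) and 0.52 (12 of 13), beside 0.01 and 0.05 over all genes. Of all genes 2149 of 4234 and 1999 of 3650 were above 0. With the wild-type cell rich in melanocyte markers left out, the basement membrane median was 0.35, with 12 of 14 above 0. Col4a1 and Col4a2, the main chains of type IV collagen, held 140 and 180 and 93 and 128 UMIs, with ratios of 0.75 and 0.85 that did not move without the 5 cells. Sparcl1, a matricellular protein of the vessel wall, held 869 and 1177 UMIs with 0.83 and 0.59. Nid1, nidogen 1, depended on those cells. It held 194 and 14 UMIs, with ratios of -3.35 over all contractile-side cells and 0.52 without those 5. Glycolysis genes were lower in Vldlr-/- with medians of -0.36 and -0.37, with 12 of 14 below 0 in both. Over all genes 2085 of 4234 and 1651 of 3650 were below 0. With the wild-type cell rich in melanocyte markers left out, the glycolysis median was -0.13, with 10 of 14 below 0. The inhibitor of differentiation Id3 held 276 and 115 UMIs with -0.87 and -0.84, and the small heat shock protein Hspb1 583 and 280 with -0.66 and -0.49. Apoe, the lipoprotein component, held 300 and 20 UMIs with -3.48 and -3.55. Without the wild-type cell rich in melanocyte markers it held 99 and 20 UMIs, with a ratio of -1.97 (-2.77 to -1.29). Over all members its 2-month ratio was 1.52, but it was -0.50 without members rich in melanocyte or macrophage markers, -0.054 with at least 4 mural transcripts and -3.27 with at most 1 endothelial and 1 fibroblast transcript.

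**Figure D5:**
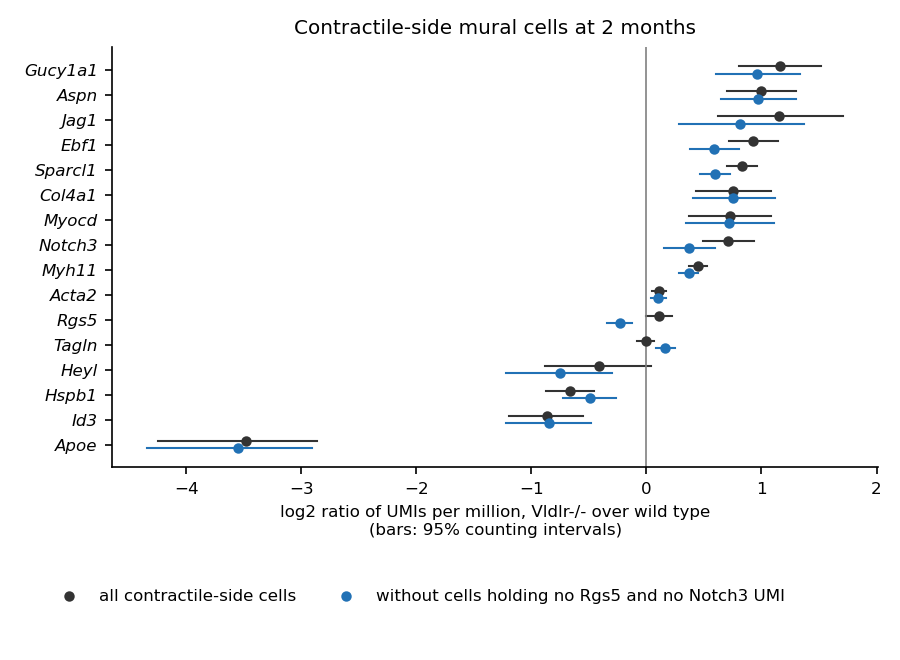
Log2 ratio of CPM in Vldlr-/- over wild-type contractile-side mural cells at 2 months for 16 genes, with bars for 95% counting intervals, for all such cells (dark) and without the 5 cells that hold no Rgs5 and no Notch3 UMI (blue). Gucy1a1, Aspn, Jag1, Ebf1, Sparcl1, Col4a1, Myocd, Notch3 and Myh11 lie above 0 in both sets, Id3, Hspb1 and Apoe below 0 in both, and Rgs5 and Tagln lie on different sides of 0 in the 2 sets. For Rgs5 and Notch3 the shift between the sets follows from the choice of the cells left out.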

How the data were processed

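The authors deposited raw UMI counts per gene and barcode for 4 libraries, each a filtered matrix of 32285 genes. The counts were made with Cell Ranger 6.0.2 (1 month) and 7.0.1 (2 months), per the file headers. Cell Ranger 3.0, Seurat 4.0 and mm9 are listed in the submitters' processing notes. No source used here says whether intron reads were counted. Promoter stretches are from RefSeq. The members, gene lists and comparisons were chosen with earlier results of these data known.

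Counts were summed over members of a library and scaled to CPM. Ratios used 0.5 added counts, exact conditional binomial 95% intervals and genes with at least 30 UMIs over both libraries. Cells with at least 5 contractile plus pericyte UMIs were placed. Named genes were the rule markers, the 15 genes most above endothelial and fibroblast barcodes, up to 10 per direction that were 2-fold apart at both ages, the 5 per age and direction with intervals farthest from 0, up to 5 per list with the most UMIs, and the 10 per side most unlike between sides. Hey2, Kctd12, Apod, Ttr, Cd24a, Nid1, Sorbs2, Col4a2, Csrp1, Vcl, Filip1l, Jun, Chrm3 and the other genes outside this rule were named after their values were seen. No doublet caller was run. The scripts were tested on simulated counts. Python 3.11.15 was used with numpy 2.4.6, scipy 1.17.1 and pandas 2.3.3. Alternatives are given at the end. Some genes that the naming rule selects are not reported here.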

Additional observations from a re-analysis of the deposited data

Results flagged for a closer look

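For 20 genes the counting intervals of the Vldlr-/- to wild-type log2 ratio lay on opposite sides of 0 at 1 month and 2 months. All 20 are among the genes selected by the naming rule above, and the number over all measured genes is not given. The difference between the ages was not tested, and each age is 1 library per genotype. Higher in Vldlr-/- at 1 month and lower at 2 months were Igfbp6 (5.12 and -1.55), Tagln (4.47 and -0.27), Acta2 (2.41 and -0.15), Hspb1 (1.21 and -0.91), Hsp90ab1 (0.35 and -0.26) and Mgp (0.13 and -0.27). Lower at 1 month and higher at 2 months were Itga4 (-2.65 and 1.02), Apoe (-2.14 and 1.52), Fos (-1.57 and 1.03), Sparcl1 (-1.05 and 0.57), Cxcl12 (-1.04 and 0.51), Ebf1 (-1.01 and 0.66), Notch3 (-0.76 and 0.46), Junb (-0.76 and 0.62), Pde5a (-0.73 and 0.32), Hes1 (-0.72 and 0.68), Aldh1a2 (-0.69 and 2.47), Igfbp5 (-0.60 and 1.08), Aspn (-0.56 and 0.58) and Col3a1 (-0.34 and 0.57). Several of these orders were not kept among other members. The 2-month ratio of Apoe was -0.054 with at least 4 mural transcripts, -0.50 without members rich in melanocyte or macrophage markers, -3.27 with at most 1 endothelial and 1 fibroblast transcript and -3.48 in contractile-side cells. The 1-month ratio of Hspb1 was -0.45 with that limit on other transcripts, -0.21 without the 10% of members with the most UMIs and -2.87 after thinning. Acta2 at 1 month rests on 1 cell with 92.4% of the Vldlr-/- UMIs and was -1.70 in pericyte-side cells, and Cxcl12 at 1 month was 0.043 with the limit on other transcripts. The 2-month ratio of Aldh1a2 was 0.075 with the same limit.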

How the results depend on the processing

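No paired analysis was possible because each group is 1 library without replicate numbers, and for the same reason no replicate could be left out. With no more than 1 endothelial and 1 fibroblast transcript allowed, the mural share was 0.66% in Vldlr-/- at 1 month and 2.54% at 2 months. The contractile share of UMIs in Vldlr-/- at 1 month was 35.97% with at least 4 markers, 42.6% with at most 1 endothelial and 1 fibroblast transcript and 12% in the median cell. In Vldlr-/- at 2 months it was 92.6%, 95.7% and 75.8%, and 87.2% without the 10% of members with the most UMIs and 92.3% with 4 rule genes added. In the wild type at 1 month it was 12.6% without those members and 12.7% in the median cell, and at 2 months 90.1%, 93.9%, 92.5% with at most 1 endothelial and 1 fibroblast transcript and 93.6% with rule genes added. After thinning to 1500 UMIs, and also without members that hold 2 fibroblast transcripts, 72.7% of placed Vldlr-/- cells at 2 months were contractile-side.

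Counts of genes at least 2-fold apart depended on depth and members. With genes from 10 UMIs up they were 659 higher and 500 lower at 1 month, 653 and 558 at 2 months, and 38 and 28 at both ages. With cells thinned to 1500 UMIs they were 13 and 13, 12 and 24, and 0 and 0. Without the 10% of members with the most UMIs they were 49 higher and 44 lower at 1 month, 106 lower at 2 months, and 3 and 2 at both ages. With at most 1 endothelial and 1 fibroblast transcript they were 30 and 51 at 1 month and 1 higher at both ages, and without members that hold 2 fibroblast transcripts 40, 48 and 1. With at least 4 markers 107 were lower at 2 months and 3 higher at both ages. In contractile-side cells 112 were lower without those that hold no Rgs5 and no Notch3 UMI.

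For single genes at least 2-fold apart, 34 values under an alternative had the other sign. With at most 1 endothelial and 1 fibroblast transcript these were, at 1 month, Lbp (-1.70), Dcn (-0.018), Hspb1 (-0.45), Myoc (0.62), Col4a4 (0.076) and Cxcl12 (0.043), and at 2 months Chil1 (-2.25), Dcn (-1.51), Cygb (-3.83), Apoe (-3.27) and Myoc (1.66). Without the 10% of members with the most UMIs they were Chil1, Ecrg4 and Hspb1 at 1 month (-0.21 each) and Kcnip4 and Pmel at 2 months (0.11 each). With at least 4 markers they were Myoc at 1 month (4.05) and, at 2 months, Chil1 (-2.25), Myoc (1.66), Pmel (0.92), Dct (0.22) and Apoe (-0.054). In pericyte-side cells at 1 month they were Ecrg4 (-0.12), Myoc (5.44) and Acta2 (-1.70), and in contractile-side cells at 2 months Chil1 (-1.93), Dcn (-4.71), Myoc (1.98), Cygb (-1.93) and Apoe (-3.48). Without members rich in melanocyte or macrophage markers they were Pmel (1.00), Dct (0.30) and Apoe (-0.50) at 2 months, and after thinning Hspb1 at 1 month (-2.87). The cause was not tested. Of the single-gene values 1974 were counted as the same, 469 as moved and 34 as of the other sign. Over the alternatives 380 list medians moved by less than their counting spread and 54 by more.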
